A study of Mus musculus with 8 samples.

Results

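The 10 genes described here carry salt and water across the lining of the large intestine. They were chosen by symbol for their role in transport: Slc26a3, Slc9a3, Slc9a2, Atp12a, Scnn1a, Scnn1b, Scnn1g, Aqp8, Aqp4 and Cftr. All 10 were found among the 17041 genes of the deposited table, and all 10 were among the 13020 genes with a mean of at least 10 that entered the test. RNA came from the proximal large intestine of ApoE knockout mice, which lack apolipoprotein E in every group. The animals were born germ-free, received their bacteria by a single gavage at 8 weeks of age and were dissected at 26 weeks. In 3 samples the mice carried a core community that does not make butyrate, and in 5 they carried that community with Roseburia intestinalis, a bacterium that does. These are called core libraries and Roseburia libraries 1 to 3 and 1 to 5, after the replicate numbers in the sample titles.

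Colonocytes take up sodium chloride mainly through paired exchangers, in which Slc9a3 and Slc9a2 swap sodium for protons and Slc26a3 swaps chloride for bicarbonate. The epithelial sodium channel, built from the Scnn1a, Scnn1b and Scnn1g subunits, and the proton-potassium pump Atp12a are best known in rodents from the distal colon, where the hormone aldosterone acts. Cftr is the chloride channel of fluid secretion, and Aqp8 and Aqp4 are water channels. Butyrate is a fuel of colonocytes and is known to promote sodium uptake, so the design allows the question of whether these genes differ when a butyrate maker is added.

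Values are the authors' normalized expression values, in which reads are scaled per library but not per transcript length. Estimated depth ran from 4607287 to 15351024 reads per library. Of the labelled tissue's markers, 7 of 7 epithelial genes were tested, and their sum stayed within 67196 to 76105 in the core and 66875 to 91424 in the Roseburia libraries. All 3 genes listed for the distal colon (Hoxb13, Hoxd13 and Hoxa13) were also read in every library, with sums of 58.6 to 595 in core and 10.8 to 883 in Roseburia libraries. Small intestinal markers summed to 2371 to 4622 and 2360 to 6680 (5 of 7 tested, all 7 in the table). In whole tissue, fewer cells of a type and less RNA per cell cannot be told apart.

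Promoters from RefSeq (build GRCm38.p6) were searched for 6 of the 10 genes, namely Slc26a3, Slc9a3, Scnn1b, Scnn1g, Aqp8 and Cftr. None was found for Slc9a2, Atp12a and Scnn1a, and Aqp4 was left out of the search. Each window runs from 250 bases before to 50 bases after the start site used. For Slc26a3 and Slc9a3 that site lies inside the annotated gene, which begins at 31433142 and 74086255. Windows at another start site could hold other matches and another GC content. The authors' build was mm9, and no position of it is used here. The first 3 are shown because Slc26a3 (chr12:31437969-31438268), Slc9a3 (chr13:74121163-74121462) and Aqp8 (chr7:123462044-123462343) varied together over the libraries. The other 2 are shown because Scnn1g (chr7:121734229-121734528) and Scnn1b (chr7:121864788-121865087), whose start sites lie 130559 bases apart, did not pass as a pair. All 5 genes are on the plus strand, and each window is written 5′ to 3′ with a match to TTTAT, on either strand, in capitals.
Slc26a3: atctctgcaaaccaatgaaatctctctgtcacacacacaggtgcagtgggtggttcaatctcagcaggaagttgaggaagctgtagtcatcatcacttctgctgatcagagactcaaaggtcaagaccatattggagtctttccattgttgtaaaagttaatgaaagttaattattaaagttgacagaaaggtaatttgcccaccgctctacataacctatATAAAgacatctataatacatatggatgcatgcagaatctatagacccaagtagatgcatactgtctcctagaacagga
Slc9a3: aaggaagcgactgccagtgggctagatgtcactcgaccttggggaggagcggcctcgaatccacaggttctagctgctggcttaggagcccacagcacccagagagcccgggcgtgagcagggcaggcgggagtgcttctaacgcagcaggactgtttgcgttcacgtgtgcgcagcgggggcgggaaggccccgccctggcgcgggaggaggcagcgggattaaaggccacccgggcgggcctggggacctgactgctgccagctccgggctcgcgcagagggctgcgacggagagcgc
Aqp8: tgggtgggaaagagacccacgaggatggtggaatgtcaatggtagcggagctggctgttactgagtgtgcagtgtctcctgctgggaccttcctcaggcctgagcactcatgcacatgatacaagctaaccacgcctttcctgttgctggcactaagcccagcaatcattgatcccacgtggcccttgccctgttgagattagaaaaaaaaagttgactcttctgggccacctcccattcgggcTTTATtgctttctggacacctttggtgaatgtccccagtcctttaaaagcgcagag
Scnn1g: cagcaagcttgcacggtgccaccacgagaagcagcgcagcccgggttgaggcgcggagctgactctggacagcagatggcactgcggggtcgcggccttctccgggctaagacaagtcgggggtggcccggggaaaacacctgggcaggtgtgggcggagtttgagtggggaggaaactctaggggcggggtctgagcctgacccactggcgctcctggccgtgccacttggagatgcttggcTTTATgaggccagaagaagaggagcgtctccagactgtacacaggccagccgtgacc
Scnn1b: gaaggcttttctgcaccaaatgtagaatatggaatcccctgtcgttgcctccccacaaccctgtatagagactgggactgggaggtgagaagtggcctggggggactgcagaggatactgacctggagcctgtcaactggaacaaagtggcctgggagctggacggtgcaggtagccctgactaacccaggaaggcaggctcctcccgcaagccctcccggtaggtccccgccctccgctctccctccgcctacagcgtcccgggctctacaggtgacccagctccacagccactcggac

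TTTAT lies within the sequence that posterior homeobox proteins such as Hoxb13 bind, and it was searched because Hoxb13 is described beside these genes. It occurred in 3 of the 6 windows, 29 bases before the start site in Slc26a3, 7 in Scnn1g and 6 in Aqp8, and in 40.0% of the 32851 mouse promoter windows of that length. In Slc26a3 the match is on the minus strand and overlaps the letters TATAAA. ACANNNTGT, the centre of the element bound by the mineralocorticoid receptor, occurred in 0 of the 6 windows and in 6.85% of all windows. GGGCGG, the GC box, occurred in 4 of 6, with 6 matches in Cftr (3 of them at 192, 188 and 184 bases before the start site, which overlap), 3 in Slc9a3, 2 in Scnn1g and 1 in Scnn1b, and in 35.7% of all windows. GC content separated the windows, at 39.3% in Slc26a3, 52.0% in Aqp8, 61.7% in Scnn1b, 64.7% in Scnn1g, 68.7% in Slc9a3 and 71.3% in Cftr. Slc26a3 and Aqp8 each held 1 match to TTTAT and 0 to GGGCGG, while Slc9a3 held 0 and 3.

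Slc26a3, the chloride-bicarbonate exchanger that is mutated in congenital chloride diarrhoea, was the most abundant of the 10 per length. Its mean was 3186 normalized units per kb of transcript, against 855 for Aqp8, 794 for Aqp4 and 14.7 for Scnn1g, the lowest. In core libraries 1 to 3 its normalized values were 11309.5, 10728 and 5307, and in Roseburia libraries 1 to 5 they were 9652, 2591, 10797, 5141 and 18589. The Roseburia libraries held both the lowest and the highest value, and their range enclosed the core range. The log2 difference, Roseburia minus core, was −0.18 (SE 0.540, 95% interval −1.38 to 1.02, limma adjusted p = 0.901). Its sign was not stable, at 0.21 without Roseburia library 2 and 0.0155 without core library 1. The authors' deposited table gives a ratio of means of 1.03, above 1 where the log2 difference is below 0.

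Slc9a3, the main apical sodium-proton exchanger of absorptive cells and the partner of Slc26a3 in neutral salt uptake, varied more. Its values were 609.5, 796 and 247 in the core libraries and 785, 133, 1086, 279 and 1873 in the Roseburia libraries. Core library 3 and Roseburia libraries 2 and 4 were the 3 low ones, as for Slc26a3, and the groups overlapped. For Slc9a3 the log2 difference was 0.20 (SE 0.757, 95% interval −1.47 to 1.88, limma adjusted p = 0.923) and moved between −0.29 and 0.73 as single libraries were left out, below 0 without core library 3 or Roseburia library 3 or 5.

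Slc9a2, a second apical sodium-proton exchanger, was much steadier. Core values were 1139.7, 1399 and 1172, and Roseburia values were 2339, 1011, 1729.8, 1342 and 2052. The 3 highest values were all in Roseburia libraries (1, 3 and 5), but library 2 of that group was the lowest of all 8, so the groups overlapped. The log2 difference was 0.40 (SE 0.246, 95% interval −0.15 to 0.94, limma adjusted p = 0.607, unadjusted p = 0.135), the smallest p of the 10 genes. It was 0.27 without Roseburia library 1 and 0.57 without Roseburia library 2, where the unadjusted p was 0.0140 and the limma adjusted p 0.286.

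Atp12a, the catalytic subunit of the colonic proton-potassium pump, showed the widest spread. In core libraries 1 to 3 it was read at 232, 1961 and 42.5, and in Roseburia libraries 1 to 5 at 31.4, 60.4, 2904, 132 and 3233. Core library 2 and Roseburia libraries 3 and 5 were high, the other 5 were at or below 232, and each group held libraries of both kinds. The highest value was 103 times the lowest, which itself rested on 47.0 estimated reads. Between the communities Atp12a had a log2 difference of 0.15 (SE 1.67, 95% interval −3.55 to 3.86, limma adjusted p = 0.975), an interval too wide to show or to bound a community difference of several fold. Without core library 3 it was −1.16, and without Roseburia library 3 or 5 it was −0.66 or −0.70.

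**Figure D1:**
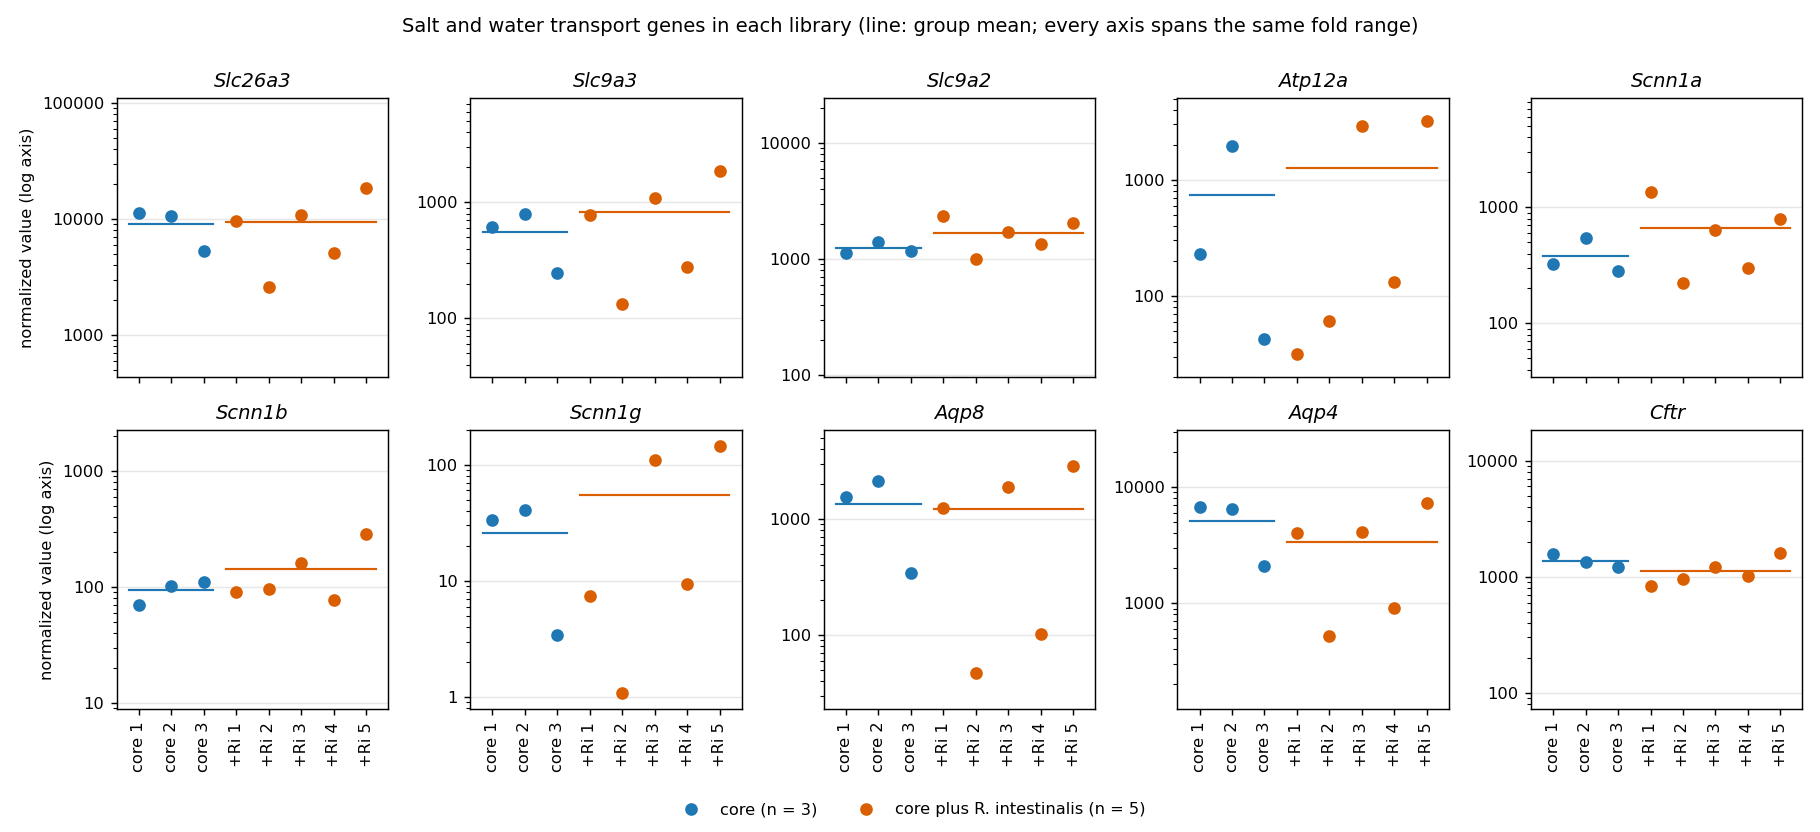
Normalized values (log axis, the same fold span in every panel) of the 10 transport genes in each core library (blue, n = 3) and each Roseburia library (orange, labelled +Ri, n = 5), with the group mean as a line. In every panel the groups overlap, and the points of Atp12a, Aqp8 and Scnn1g spread far more than those of Cftr and Slc9a2.

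The subunits of the epithelial sodium channel did not share one pattern. Scnn1a, the alpha subunit, without which the channel conducts little, stood at 322, 541 and 284 in the core libraries. In the Roseburia libraries it stood at 1361, 222, 642, 299 and 786, highest in library 1. The ranges overlapped, with a log2 difference of 0.55 (SE 0.515, 95% interval −0.59 to 1.70, limma adjusted p = 0.686). It was 0.22 without Roseburia library 1 and 0.37 without core library 3, and 0.83 without core library 2 and 0.87 without Roseburia library 2.

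Scnn1b, the beta subunit, was low but steadier, at 69.8, 102 and 110.2 in core and 90.1, 96.0, 161, 77.9 and 288 in Roseburia libraries. Only Roseburia libraries 3 and 5 lay above the core range. Its log2 difference was 0.44 (SE 0.392, 95% interval −0.43 to 1.31, limma adjusted p = 0.678), and 0.14 without Roseburia library 5 and 0.24 without core library 1.

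Scnn1g, the gamma subunit and chromosomal neighbour of Scnn1b, was at 33.3, 40.45 and 3.44 in core and 7.34, 1.08, 111, 9.44 and 146 in Roseburia libraries. Its lowest values rested on about 1 read in Roseburia library 2 and about 3 reads in core library 3, so no fold is given against them. The high libraries were Roseburia 3 and 5 (242 and 114 estimated reads), with core 1 and 2 in between. Over the 6 libraries with more reads, Scnn1b was between 1.45 (Roseburia 3) and 12.3 (Roseburia 1) times Scnn1g in normalized units. The log2 difference of Scnn1g was 0.09 (SE 1.34, 95% interval −2.87 to 3.05, limma adjusted p = 0.983), and it was below 0 without core library 3 (−0.94) or without Roseburia library 3 or 5 (−0.53 or −0.63).

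Both water channels had lower mean log2 values with R. intestinalis, without passing the test. Aqp8, a water channel of surface colonocytes, was at 1538, 2139.6 and 344 in the core libraries and at 1255, 47.4, 1882, 101 and 2866 in the Roseburia libraries. Roseburia libraries 2 and 4 and, less far, core library 3 were low, and the range of the Roseburia libraries enclosed that of the core libraries. The highest value was 60.4 times the lowest (44.0 estimated reads). The log2 difference was −1.04 (SE 1.29, 95% interval −3.89 to 1.81, limma adjusted p = 0.750). It ranged from −0.19 without Roseburia library 2 to −1.84 without core library 3, and the authors' deposited table gives a ratio of means of 0.92. Without core library 3 and Roseburia libraries 2 and 4, an alternative chosen after seeing the data, it was 0.0605.

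Aqp4, a basolateral water channel better known from brain astrocytes, was at 6803, 6446 and 2073 in core and 3998, 524, 4078, 902 and 7299.8 in Roseburia libraries. The same 3 libraries were low again, and the groups overlapped. Its log2 difference was −1.01 (SE 0.799, 95% interval −2.78 to 0.76, limma adjusted p = 0.651), and it ranged from −0.48 without Roseburia library 2 to −1.56 without core library 3.

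Cftr, the cyclic AMP-gated chloride channel of crypt cells and the one secretory member, was the steadiest of the 10. It stood at 1567, 1349.8 and 1203 in core and at 831, 950, 1209.7, 1024 and 1612 in Roseburia libraries. Roseburia libraries 1, 2 and 4 lay below all core libraries, while library 5 was the highest of the 8, at 1.94 times the lowest. The log2 difference was −0.32 (SE 0.203, 95% interval −0.77 to 0.13, limma adjusted p = 0.610, unadjusted p = 0.148), and it ranged from −0.22 without Roseburia library 1 to −0.46 without Roseburia library 5, where the unadjusted p was 0.0194 and the limma adjusted p 0.742.

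Across the communities, then, none of the 10 genes differed beyond the spread between libraries. By limma, 0 of 10 had an adjusted p below 0.05, as did 0% of the 13020 genes tested, whose smallest adjusted p was 0.503. At an unadjusted p below 0.05 the count was 0 of 10, against 8.13% of all genes tested (1058 genes). In 0 of 10 were the core and Roseburia libraries fully apart, against 5.84% of all genes tested (761 genes). In the authors' deposited table, 0 of 10 reached a posterior probability of differential expression of 0.95, against 0.481% of its genes (82), and the 10 genes' probabilities lay between 0 and 0.02. The log2 difference was above 0 in 6 and below 0 in 4, with a median of 0.12 against −0.00347 for all genes tested. Measured relative to the epithelial markers, a scaling that moves the median of all genes to −0.24, it was above 0 in 3 and below 0 in 7, with a median of −0.12. These counts do not show that the genes act alike in both communities, since the intervals reach from −3.89 (Aqp8) to 3.86 (Atp12a).

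**Figure D2:**
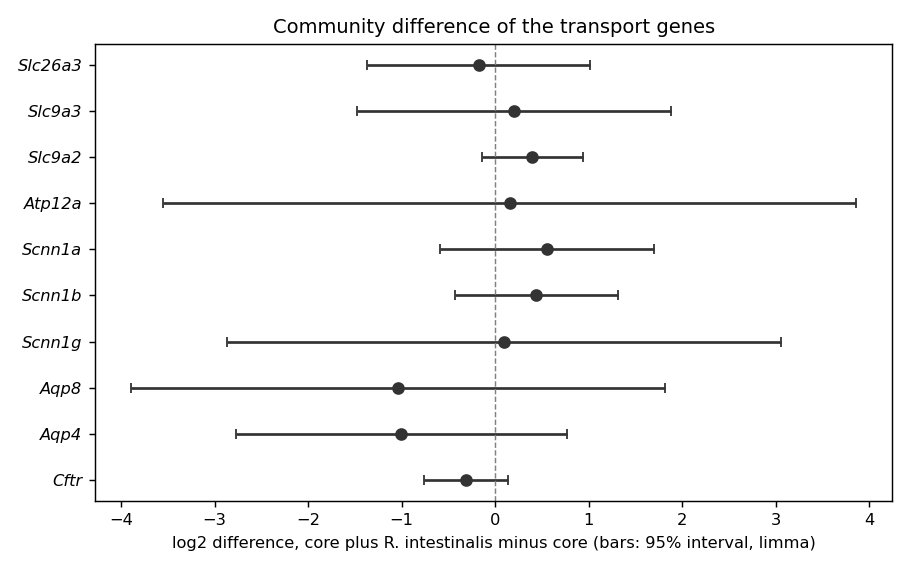
Log2 difference of each transport gene, Roseburia minus core (points, 3 against 5 libraries), with its 95% interval from limma (bars). All 10 intervals include 0, from the narrow one of Cftr (−0.77 to 0.13) to that of Atp12a (−3.55 to 3.86).

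Most of the 10 genes spread widely between libraries. The standard deviation of log2(value + 1) over the 8 libraries had a median of 1.08 for the 10 genes and of 0.316 for all genes tested, and 7 of the 10 lay among the 5% of tested genes with the largest. Atp12a, at 2.79, was exceeded by 11 of the 13020 genes, Aqp8, at 2.21, by 28, and Scnn1g, at 2.20, by 30. Aqp4 (1.43), Slc9a3 (1.26), Slc26a3 (0.89) and Scnn1a (0.89) were the other 4. Scnn1b (0.65), Slc9a2 (0.43) and Cftr (0.34) lay closer to the bulk, with 9.47%, 30.4% and 45.5% of tested genes above them. No test was made of these ranks. The sum of the 7 epithelial markers differed 1.37-fold between the highest and the lowest library, against 6.87-fold for the sum of the 10 transport genes. Single epithelial markers differed by up to 3.24-fold (Cldn7). The sum of the 5 surface colonocyte markers differed by 2.15-fold, and single ones from 1.32-fold (Ceacam1) to 8.94-fold (Car1).

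**Figure D3:**
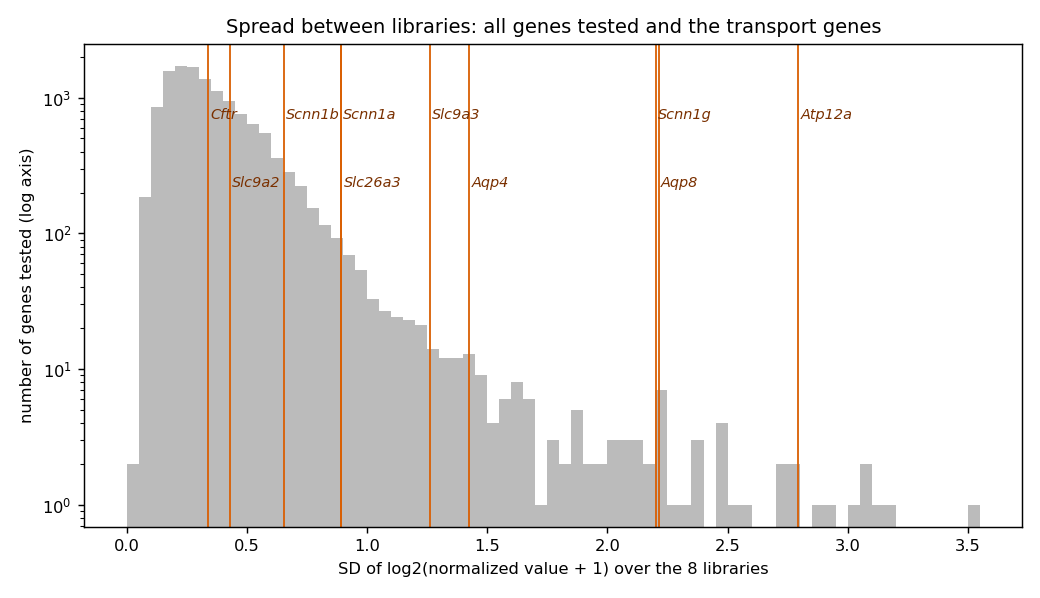
Standard deviation of log2(normalized value + 1) over the 8 libraries for all 13020 genes tested (grey histogram, log count axis) and for the 10 transport genes (orange lines). Atp12a (2.79), Aqp8 (2.21) and Scnn1g (2.20) lie far in the tail, and Cftr (0.34) and Slc9a2 (0.43) within the bulk.

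The same libraries were low for several genes. Roseburia library 2 had the lowest value of 7 of the 10, and Roseburia library 5 the highest value of 8, the exceptions being Slc9a2 and Scnn1a, which peaked in library 1. For 5 genes (Slc26a3, Slc9a3, Scnn1a, Aqp8 and Aqp4) the 3 lowest libraries were core 3 and Roseburia 2 and 4. All 45 pairs of the 10 genes were compared over the 8 libraries by correlation of log2 values, with two-sided exact permutation p-values adjusted by Benjamini-Hochberg over the 45. The Pearson r was positive in 43 pairs, and 11 passed an adjusted p of 0.05, all positive. By Spearman's rho 15 passed, 10 of them shared. All genes of a pair were read from the same libraries, so depth and tissue content are common to both. The share of passing pairs among all genes tested was not computed. The counts are therefore not shown to be particular to the transport genes.

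Among the exchangers and the water channels, all 6 pairs of Slc26a3, Slc9a3, Aqp8 and Aqp4 passed by r. The 2 water channels had the highest r over the 8 libraries, 0.984 (rho = 0.929, exact permutation adjusted p = 0.00419 and 0.0201) and 0.902 without the 2 libraries farthest from the median of Aqp8. Slc26a3 and its functional partner Slc9a3 had r = 0.971 (rho = 0.833, exact permutation adjusted p = 0.00614 and 0.0461), and 0.945 without the 2 farthest. Slc26a3 and Aqp4 had r = 0.947 (rho = 0.976, exact permutation adjusted p = 0.00223 and 0.0179), and 0.889 without the 2 farthest. Slc9a3 and Aqp4 had r = 0.884 and passed by r (adjusted p = 0.0155, exact permutation) but not by rho (0.0612).

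Slc9a2 and Scnn1a formed a second pair, both highest in Roseburia library 1, with r = 0.963 (rho = 0.929, exact permutation adjusted p = 0.00223 and 0.0201) and 0.905 without the 2 farthest libraries. By r, Atp12a passed with Scnn1g alone, both peaking in Roseburia libraries 3 and 5, with r = 0.910 (rho = 0.905, exact permutation adjusted p = 0.0120 and 0.0257) and 0.789 without those 2. Scnn1g also passed with Slc26a3 (r = 0.891), Slc9a3 (0.907) and Aqp8 (0.828, and 0.655 without the 2 farthest). The channel's own subunits did not pass with one another. Scnn1b and Scnn1g had r = 0.612 (rho = 0.452, exact permutation adjusted p = 0.158 and 0.344), which turned to −0.41 without Roseburia libraries 3 and 5. Scnn1a had r = 0.496 with Scnn1g and 0.416 with Scnn1b, and 0.911 and 0.613 without Roseburia libraries 1 and 5. Cftr passed with no gene by r, but by rho it passed with Aqp4 (rho = 0.857, exact permutation adjusted p = 0.0438), Slc26a3 and Atp12a (both rho = 0.833, exact permutation adjusted p = 0.0461). Its r was −0.0891 with Slc9a2 and −0.0740 with Scnn1a.

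Single libraries carried part of this. The 11 pairs became 27 without Roseburia library 1, 7 without Roseburia library 2 and 6 without Roseburia library 5. After each group's mean was subtracted they became 22, which included all 11. Centred values were permuted across both groups, so the permutation p-values are not exact there and may be too small. The 22 is thus not a like-for-like count.

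**Figure D4:**
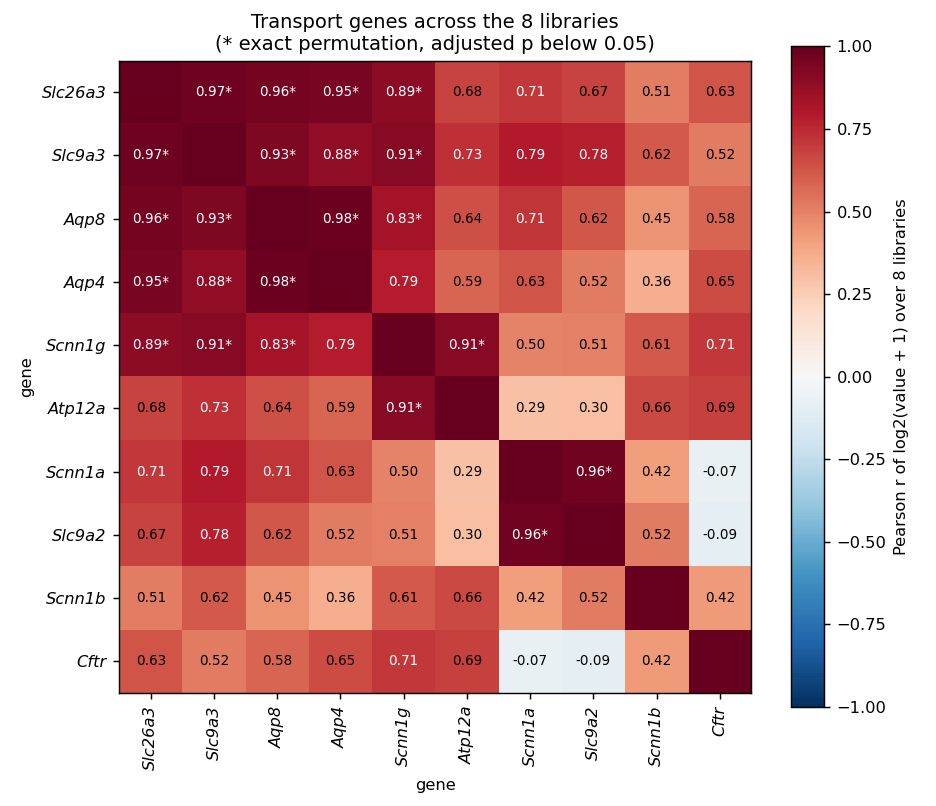
Pearson r of log2(normalized value + 1) over the 8 libraries for every pair of the 10 transport genes, red above 0 and blue below, with a star where the exact permutation p adjusted over 45 pairs is below 0.05. A block of high values joins Slc26a3, Slc9a3, Aqp8, Aqp4 and Scnn1g, while Slc9a2 pairs with Scnn1a and Cftr carries no star.

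The low libraries also differed in genes of position along the gut. Hoxb13, a homeobox gene of the distal colon, was at 141, 439 and 25.3 in the core libraries and at 247, 2.16, 394, 8.26 and 663 in the Roseburia libraries. Slc10a2, the bile acid transporter of the ileum, was at 49.05, 13.9 and 509.7 and at 59.7, 818, 414, 949 and 80.5. Core library 3 and Roseburia libraries 2 and 4 had the 3 lowest Hoxb13 and the 3 highest Slc10a2 values, both groups contributing. The 2 genes were taken up because earlier results on these libraries had shown them to differ, so their relations to the transport genes are a description of these libraries.

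Over 20 relations (10 genes with each of the 2), adjusted together, 5 genes passed with Hoxb13 by Pearson's r. How many of all genes tested follow Hoxb13 as closely was not computed. The 5 are therefore not shown to stand out from other genes. Aqp8 followed it most closely, with r = 0.989 (rho = 0.976, exact permutation adjusted p = 0.00198 and 0.00794) and 0.967 without the 2 farthest libraries. Slc9a3 had r = 0.961 (rho = 0.952, exact permutation adjusted p = 0.00223 and 0.0114) and 0.954 without them. Slc26a3 (0.953), Aqp4 (0.952) and Scnn1g (0.842) passed by r but not by rho, whose exact permutation adjusted p-values were 0.0615, 0.0536 and 0.0536. With Slc10a2 the single gene to pass was Aqp4, at r = −0.83 (rho = −0.76, exact permutation adjusted p = 0.0365 and 0.105).

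Atp12a did not pass with Hoxb13 (r = 0.675, rho = 0.667, exact permutation adjusted p = 0.118 and 0.151), and its lowest value, 31.4, fell in Roseburia library 1, where Hoxb13 was 247. Cftr (r = 0.511) and Scnn1b (r = 0.503) did not pass either. The part of the position along the gut in the differences between libraries was not tested. When log2 Hoxb13 was added to the model as a covariate, an alternative chosen after seeing the data, 5 of the 10 genes had an unadjusted p below 0.05 in limma. Slc9a3 (0.51), Slc9a2 (0.48) and Scnn1a (0.74) then had positive and Aqp8 (−0.50) and Aqp4 (−0.68) negative log2 differences. Their adjusted p-values were 0.197 to 0.212, and 2400 of the 13020 genes reached an unadjusted p below 0.05 in that model, with 0 past the adjusted threshold.

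**Figure D5:**
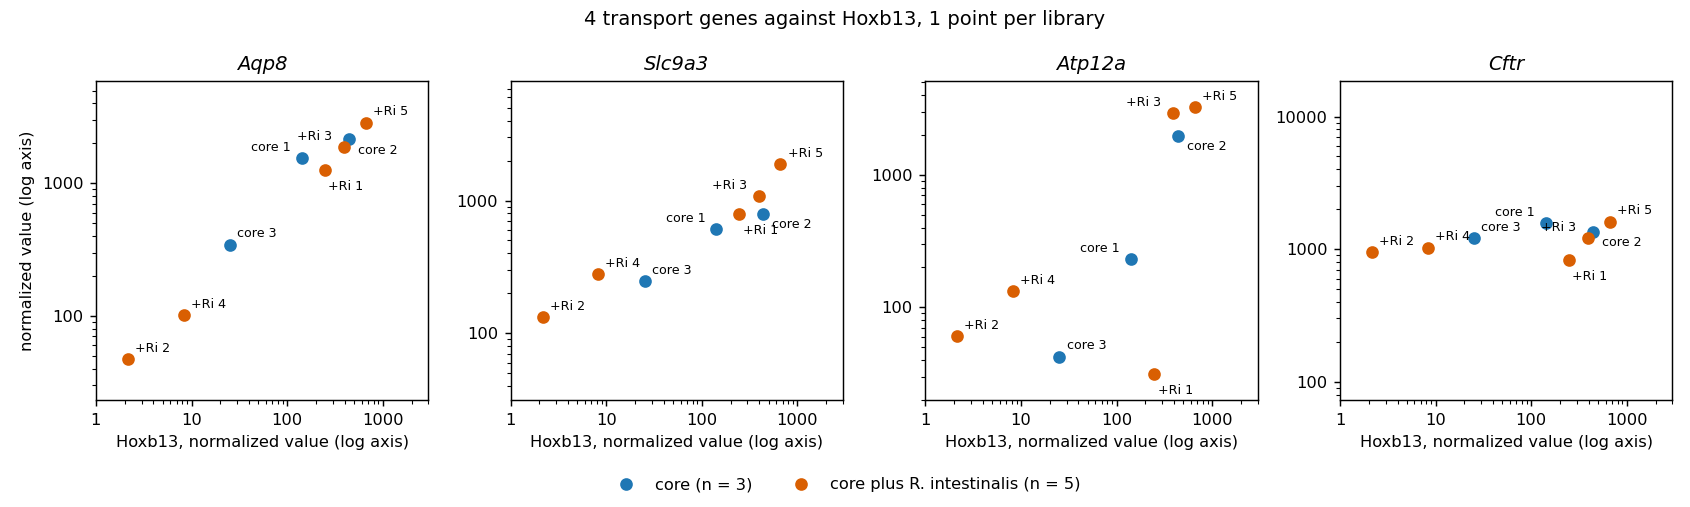
Normalized value of Aqp8, Slc9a3, Atp12a and Cftr against that of Hoxb13 (both log axes, each vertical axis with the same fold span), 1 point per core library (blue, n = 3) or Roseburia library (orange, +Ri, n = 5). Aqp8 and Slc9a3 climb with Hoxb13 in both groups, Cftr is nearly flat, and Atp12a is low in Roseburia library 1 although Hoxb13 is 247 there.

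For the 3 genes with a mean of at least 50 and the widest range, the genes most like them over the 8 libraries were sought among 9588 genes by Pearson's r, as a description. Nearest to Aqp8 were Thbs4, a thrombospondin of the extracellular matrix (r = 0.990), Sval1, a seminal vesicle antigen-like gene (0.989), and Hoxb13 itself (0.989). Sval1 was at 2567, 2434 and 267 in core and 966, 28.0, 1671, 99.1 and 2763 in Roseburia libraries, low in the same 3. Nearest to Atp12a were Gal3st2, a galactose sulfotransferase (0.979), Reg4, a secreted lectin of the Reg family (0.976), and Upp1, uridine phosphorylase (0.974). Reg4 was at 221, 359.8 and 133 in core and 83.5, 119.7, 435, 164 and 626 in Roseburia libraries. Gal3st2 has near-identical copies in the mouse genome, so its value is uncertain. Nearest to Slc9a3 were Smad4, a signal transducer of the TGF-beta family (0.983), Prdx6, a peroxiredoxin (0.978), and Esyt2, a membrane tether (0.973), although Esyt2 ranged only from 796 to 872.

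Other genes of salt and water transport were read from 5 lists. Among 15 other ion exchangers and channels, 0 passed by limma's adjusted p, and 1 was higher and 1 lower at an unadjusted p below 0.05. Of all 13020 genes tested, 578 were higher and 480 lower at that p, 8.13% together. The median log2 difference of the 15 genes was 0.20, and −0.0426 relative to epithelial markers. Slc4a2, the basolateral chloride-bicarbonate exchanger, was at 341, 489 and 408 in core and 1030.2, 495, 686, 710.4 and 683 in Roseburia libraries, so that the groups did not overlap (log2 difference 0.78, SE 0.216, limma adjusted p = 0.588). Slc4a7, the other gene of this list without overlap, was lower in the Roseburia libraries (log2 difference −0.20, SE 0.126). Over all genes tested, the groups did not overlap in 5.84%. Kcne3, the potassium channel subunit that supports chloride secretion, had −0.39 (SE 0.167), and the sodium-proton exchanger Slc9a8 had 0.55 (SE 0.261), both with the same limma adjusted p of 0.588.

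Of 7 genes of the sodium pump, which drives uptake from the basolateral side, 6 were tested, with a median of 0.12, and of −0.12 relative to epithelial markers. Of these, 0 passed and 1 was lower at an unadjusted p below 0.05, against 8.13% of all genes tested in either direction. This was Fxyd5, a regulatory subunit, at 475, 498 and 404 in core and 239, 395, 336, 382 and 312 in Roseburia libraries. Its log2 difference was −0.48 (SE 0.179, limma adjusted p = 0.588), and its groups did not overlap, as in 5.84% of all genes tested. The beta subunits Atp1b2 and Atp1b1 had 0.54 (SE 0.426) and 0.20 (SE 0.161).

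Of 14 genes of aldosterone action and channel regulation, 0 passed, with a median of 0.33, and of 0.0922 relative to epithelial markers. At an unadjusted p below 0.05, 3 were higher, against 8.13% of all genes tested in either direction. Spint1 and Spint2, inhibitors of the proteases that activate the sodium channel, had log2 differences of 0.78 (SE 0.297) and 0.55 (SE 0.238), and Nr3c2, the mineralocorticoid receptor, had 0.44 (SE 0.199), each with a limma adjusted p of 0.588. In all 3 the groups overlapped. They did not overlap in 1 of the 14 genes, Wnk4 (log2 difference 0.63, SE 0.294, limma adjusted p = 0.588), against 5.84% of all genes tested. Nr3c2 was at 289, 392 and 445 in core and at 524, 427, 595, 388 and 615 in Roseburia libraries.

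Of 9 genes of secretory signalling and scaffolds, 8 were tested and 0 passed. At an unadjusted p below 0.05, 2 were higher, against 8.13% of all genes tested in either direction. All 8 had differences above 0, with a median of 0.43, and 6 of 8 did so relative to epithelial markers, with a median of 0.19. Of all genes tested, 49.6% were above 0. Marker lists went both ways. Tested genes above 0 were 6 of 7 for epithelium (median 0.20), 5 of 5 for surface colonocytes (0.17), 5 of 5 for small intestine (1.33) and 2 of 3 for leukocytes (0.21). The small intestinal genes Apoa4 and Lct, not tested, had deposited ratios of means of 0.85 and 0.55. They were 2 of 6 for goblet cells (−0.0171), 2 of 5 for enteric neurons and glia (−0.26) and 1 of 4 for crypt cells (−0.15). Endothelium had 0 of 3 (−0.22), and the distal colon list 0 of 3 (−0.72). Also below 0 were the lists of smooth muscle, with 0 of 6 genes above 0 (median −0.50), fibroblasts, with 0 of 6 (−0.60), and adipocytes, with 0 of 4 tested (−1.83). Their sums ran from 127430 to 175440 in core and 84934.5 to 149856 in Roseburia libraries for smooth muscle, from 7773 to 8921 and 4614 to 6994 for fibroblasts, and from 1130.5 to 2746 and 318 to 1489.8 for adipocytes. No gene of the smooth muscle, fibroblast and adipocyte lists was at 0 in all libraries, and their part in the differences of the transport lists was not tested. Slc9a3r1, the scaffold that holds Slc9a3 and Cftr at the apical membrane, was at 849, 1475 and 1162 in core and 3415, 1168, 2507, 1874 and 2720.0 in Roseburia libraries (log2 difference 0.95, SE 0.314, limma adjusted p = 0.588). Gucy2c, the guanylin receptor that slows Slc9a3 and opens Cftr, had 0.46 (SE 0.152), and Vipr1, a receptor for the secretagogue VIP, had 0.48 (SE 0.317).

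Of 9 other aquaporins, 6 were in the table and 2 were tested. Aqp1, a water channel of endothelium and red cells, had a log2 difference of 0.06 (SE 0.189) and Aqp11, an intracellular member, 0.65 (SE 0.338, limma adjusted p = 0.588). Aqp11 was highest in Roseburia libraries 2, 3 and 4, at 256, 204 and 227, unlike Aqp8. Aqp3, Aqp7, Aqp9 and Aqp12 stayed below 10 in all 8 libraries.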

How the data were processed

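RNA-seq values of 3 core and 5 core plus R. intestinalis libraries were read from 1 deposited table. Bowtie2, RSEM 1.2.23 and mm9 are named in the submitters' processing notes, without saying which step used which. Their annotation and their comparison tool: not given in the sources used here. Per the file headers, the authors' values are a normalized signal, and they behave like estimated reads over a factor per library. The authors' posterior probability is a score per gene, and the deposited fold change is a linear ratio of group means, core plus R. intestinalis over core. Recomputed ratios of means matched it within 2% or 0.01 for 100% of genes whose core mean reached 10. Low values (under 30) lay on a per-read step in 79.9% to 84.2% of cases (tolerance 0.05), so the sum over the step only estimates depth and whole reads were not assumed. Core libraries are numbered 3 to 5 in the submitters' sample names, and other core libraries are not analysed here. Diet, sex, cage and isolator were likewise not stated. Nothing states more than that the samples come from mice, so p-values measure the spread between these samples.

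Log2(value + 1) of genes with a mean of at least 10 was fitted with limma 3.58.1 in R 4.3.3 (mean-variance trend, Benjamini-Hochberg threshold 0.05), which understates changes of low genes. The script was tested on simulated data. Correlations and exact permutation tests used Python 3.11.15, numpy 2.4.6, scipy 1.17.1 and pandas 2.3.3. Lengths came from GENCODE transcripts of GRCm38, 1 per gene, which may differ from the authors' annotation. Promoters came from RefSeq. The trimmed mean of M values was computed directly, not with a package.

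The members, the 5 pathway and 12 marker lists and the tests were chosen with earlier results of these data known. Named were all 10 members, Hoxb13 and Slc10a2, up to 3 tested genes of each pathway list with the smallest p, and for 3 members of wide range the 3 genes most like them, leaving out predicted gene models, Riken clones and ribosomal protein genes. Other genes were named after their values were seen. Alternatives were pseudocounts of 0.5 and 5, a mean of at least 50, all genes without a filter, 3 rescalings, no trend, library weights, replicate blocks and each library left out. A GC correction, Hoxb13 as a covariate and leaving out the 3 libraries of lowest Hoxb13 were added after seeing the data.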

Additional observations from a re-analysis of the deposited data

Results flagged for a closer look

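In 2 of 26 genes examined, 1 of the 5 Roseburia libraries stood far from the other 4, and both times it was library 1. Such a gap arises by chance in about 1 in 20 groups. Atp1b2, a beta subunit of the sodium pump, was at 91.47 in that library and at most 32.9 in the other 4. Spint2, an inhibitor of channel-activating proteases, was at 3116.67 there and at most 1808 in the others. Scnn1a and Slc9a2 also had their highest values in this library, at 1361 and 2339, and Atp12a and Cftr their lowest, at 31.4 and 831. Core groups of 3 were not examined in this way.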

How the results depend on the processing

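None of the 10 genes passed the adjusted threshold in any of the 22 other settings, where the lowest adjusted p was 0.0849 (Slc9a2 with library weights). Over all genes, limma library weights, which gave Roseburia library 3 a weight of 7.98, called 455 genes, and leaving out single libraries called 0 to 1 (1 without core library 1). Slc9a2, Scnn1a, Scnn1b, Aqp4 and Cftr kept the sign of their log2 difference in every setting run. The other 5 did not. Relative to epithelial markers, which moved the median of all genes to −0.24, the values were −0.0367 (Slc9a3), −0.0866 (Atp12a) and −0.15 (Scnn1g). With library weights they were 0.12 (Slc26a3) and 0.26 (Aqp8), while Atp12a moved to 2.95, Scnn1g to 1.84 and Slc9a3 to 0.87. In that setting 3 of the 10 genes (Slc9a2, Scnn1a and Scnn1b) had an unadjusted p below 0.05 in limma, as did 3829 of the 13020 genes tested. With Hoxb13 as a covariate Slc26a3 had 0.0336, and without the 3 libraries of lowest Hoxb13 the values were 0.18 (Slc26a3), −0.00683 (Atp12a) and 0.0605 (Aqp8). With the GC correction, log2 differences shrank for Scnn1a (0.31), Slc9a2 (0.29), Scnn1b (0.27), Cftr (−0.14), Slc26a3 (−0.0288), Slc9a3 (0.12) and Aqp4 (−0.83). They grew in size for Aqp8 (−1.12), Atp12a (0.19) and Scnn1g (0.10). Correlated pairs were not counted after that correction. Leaving out single libraries gave −0.53 to 0.21 for Slc26a3, −0.29 to 0.73 for Slc9a3, −1.16 to 1.58 for Atp12a and −0.94 to 0.90 for Scnn1g. Correlated pairs numbered 22 on deviations from group means, where the permutation is not exact. They numbered 6 to 27 as single libraries were left out (27 without Roseburia library 1, 7 without library 2). For these changes the cause was not tested. The labels do not say whether replicate numbers pair the samples. Deviations of same-numbered libraries correlated at −0.12, −0.53 and −0.07 by title and at −0.01, −0.41 and −0.49 by sample name. Such correlations, 3 per numbering, cannot settle whether samples were paired. With the replicate number as a block, 0 genes passed and 395 had an unadjusted p below 0.05, and the log2 differences were −0.0263 (Slc9a3), −0.59 (Atp12a) and −0.57 (Scnn1g). With the replicate block by sample name Slc26a3 had 0.23. Scnn1g had no value with a mean of at least 50. Depth limits Scnn1g, read about 1 to 3 times in 2 libraries.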

Other observations

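Sgk1, a kinase induced by aldosterone and glucocorticoids that keeps the sodium channel at the membrane, was singled out after its values were seen. It stood at 1334, 899 and 919 in the core libraries and at 784, 1394, 3066, 1855 and 3574 in the Roseburia libraries (log2 difference 0.85, SE 0.424, limma adjusted p = 0.588). It was highest in Roseburia libraries 3 and 5, which also held the highest Atp12a and Scnn1g values. Core library 2 had Atp12a at 1961 with Sgk1 at 899, so the high libraries of the 2 genes were not all the same.

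Car1 and Car4, carbonic anhydrases of colonocytes that supply bicarbonate and protons to the exchangers, were also looked at after the fact. Car1 was at 36525, 12235 and 83254 in core and 46258, 109366, 53024, 92121 and 35199 in Roseburia libraries, highest in the 3 libraries where Slc26a3, Slc9a3 and Aqp8 were lowest. Car4 was at 8175, 11988 and 5087 and at 9265, 5080, 12715, 6233 and 14999, lowest in those same 3. Prkg2, the cyclic GMP-dependent kinase that relays guanylin signals to Cftr and Slc9a3, was at 113, 58.5 and 387 in core and 110.5, 651, 292, 602 and 60.1 in Roseburia libraries. Its 3 highest values fell in the 3 libraries of lowest Hoxb13.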
